A study of Mus musculus with 24 samples.

Results

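Potassium channel genes were followed here across 1161 peaks of H3K27ac, a histone acetylation found on promoters and enhancers in use, in neuronal nuclei of the mouse dentate gyrus. The members were the rows of the authors' peak table whose gene symbol begins with Kcn, without the Kcnip genes, which encode calcium-binding partners of the channels. These rows made up 1161 of 144154 peaks and named 88 genes. A peak was taken as a promoter peak if some part of it reached to 1000 bp or less from the transcription start site (TSS) given for it. By that measure 108 peaks of 69 genes were promoter peaks, of which 32 spanned the TSS, and 1053 were other peaks. The table gives each peak to a single gene: 770 of the 1161 lay inside an annotated transcript, and 153 of these lay inside a transcript of a gene other than the one named, so a gene name below says which TSS a peak was assigned to. The antisense and noncoding genes Kcnq1ot1, Kcnd3os, Kcnmb4os1 and Kcnmb4os2 overlap or neighbour channel genes, and ChIP reads carry no strand, so their peaks cannot be given to 1 gene with certainty.

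The libraries came from 4 groups of 12-week-old male C57BL/6J mice with 3 libraries each. HDACi-CFC mice were injected with CI-994 (HDACi), which blocks the class I enzymes that take acetyl groups off histones, at 30 mg/kg, and 1 h later underwent contextual fear conditioning (CFC), which was 3 min in a chamber and then 2 foot shocks of 1 s at 0.2 mA. Veh-CFC mice had the same shocks after the solvent alone. HDACi-Context mice had CI-994 and as long in the chamber with no shock, and Veh-Context mice had solvent and no shock. Nuclei positive for the neuronal protein NeuN were sorted from the dentate gyrus of mice killed 1 h after the test. The sample titles themselves name only the hippocampus, of which the dentate gyrus is a part. Since conditioning was assigned by cage, the effects of shock and of cage cannot be told apart. The labels do not say that replicates are separate mice, so the p-values measure the spread between these libraries, which may be technical.

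Potassium channels let potassium ions leave a neuron and so set its resting potential, end its action potentials and limit how often it fires. Voltage-gated (Kv) channels open on depolarisation, calcium- and sodium-activated channels open when these ions enter the cell, inward rectifiers and two-pore channels hold the membrane near rest, and auxiliary and silent subunits change the gating of the pore subunits they join. In the dentate gyrus, granule neurons are known for firing sparsely, and potassium conductances are part of what keeps them quiet.

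The promoter windows of 5 genes whose peaks the results turn on are shown first. They are RefSeq sequences on GRCm38.p6, the assembly of mm10, from 250 bases before to 50 bases after the annotated start, written 5′ to 3′ on the gene's own strand, with CpG dinucleotides in capitals. Kcnc2 lies at chr10:112270871-112271170 (plus strand) and falls inside its promoter peak. Kcnh5 at chr12:75177283-75177582 (minus strand) and Kcnn1 at chr8:70856959-70857258 (minus strand) fall inside their peaks. Kcnj4 lies at chr15:79505192-79505491 (minus strand) over the upstream end of the peak on its gene body. Kcnq1ot1 lies at chr7:143296498-143296797 (minus strand) over the upstream of its 3 promoter peaks and just short of the next one.
Kcnc2: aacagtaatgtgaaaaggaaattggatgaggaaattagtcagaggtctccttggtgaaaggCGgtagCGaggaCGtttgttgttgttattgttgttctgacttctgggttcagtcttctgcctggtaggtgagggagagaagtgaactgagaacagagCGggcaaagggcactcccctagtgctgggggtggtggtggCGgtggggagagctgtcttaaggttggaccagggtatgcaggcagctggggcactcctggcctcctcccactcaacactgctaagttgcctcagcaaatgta
Kcnh5: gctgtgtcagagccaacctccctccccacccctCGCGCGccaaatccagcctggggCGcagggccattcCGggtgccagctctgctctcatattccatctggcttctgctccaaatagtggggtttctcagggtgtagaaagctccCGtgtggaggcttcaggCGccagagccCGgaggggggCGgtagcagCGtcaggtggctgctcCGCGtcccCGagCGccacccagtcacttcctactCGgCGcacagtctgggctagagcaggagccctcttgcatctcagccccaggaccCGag
Kcnn1: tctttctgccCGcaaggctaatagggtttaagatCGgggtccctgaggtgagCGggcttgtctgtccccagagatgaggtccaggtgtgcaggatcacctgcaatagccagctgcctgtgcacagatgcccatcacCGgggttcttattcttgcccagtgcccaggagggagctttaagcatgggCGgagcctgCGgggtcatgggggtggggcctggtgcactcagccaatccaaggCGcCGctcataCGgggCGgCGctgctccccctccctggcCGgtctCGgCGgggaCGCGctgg
Kcnj4: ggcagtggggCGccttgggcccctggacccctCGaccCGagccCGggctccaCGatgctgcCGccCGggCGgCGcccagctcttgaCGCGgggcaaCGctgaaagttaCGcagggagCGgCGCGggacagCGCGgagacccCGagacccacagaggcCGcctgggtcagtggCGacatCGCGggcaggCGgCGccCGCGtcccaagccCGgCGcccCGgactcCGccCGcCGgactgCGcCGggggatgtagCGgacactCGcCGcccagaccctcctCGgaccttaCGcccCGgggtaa
Kcnq1ot1: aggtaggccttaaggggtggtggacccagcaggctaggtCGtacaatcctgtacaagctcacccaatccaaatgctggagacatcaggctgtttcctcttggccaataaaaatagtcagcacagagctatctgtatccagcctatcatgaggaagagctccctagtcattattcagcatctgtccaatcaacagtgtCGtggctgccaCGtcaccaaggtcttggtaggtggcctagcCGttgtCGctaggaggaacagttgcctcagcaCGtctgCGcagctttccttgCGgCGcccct

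These windows hold 5 CpG in Kcnc2, 17 in Kcnh5, 16 in Kcnn1, 41 in Kcnj4 and 9 in Kcnq1ot1, so promoters of very unequal CpG content are among those described below. RefSeq windows were matched by symbol for 64 of the 88 genes, 84 windows in all, and 44 of them touched a promoter peak. The median Kcn window held 10 CpG and 58.2% G or C, against 7 CpG and 52.7% over 32851 windows of all genes. Of the letters searched on both strands, the GC box (GGGCGG) was in 48.8% of the Kcn windows and 35.7% of all windows, the AP-1 motif (TGANTCA) in 2.38% and 7.81%, and the cAMP response element (CRE, TGACGTCA) in 0% and 1.79%. A match or its absence describes only these letters in these windows.

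Library totals in peaks ran from 6639158 to 16734757 reads, and Kcn peaks took 1.03% to 1.14% of them. Promoter peaks took an uneven share of all counts by group: 25.2% to 25.4% in HDACi-CFC, 24.9% to 26.7% in Veh-CFC, 18.3% to 19.6% in HDACi-Context and 21.4% to 22.5% in Veh-Context libraries. Within the Kcn counts the promoter share moved likewise, at 20.8% to 21.3%, 19.4% to 21.7%, 13.6% to 15.5% and 16.1% to 16.8% in the same order of groups. No spike-in was used, so each comparison below sets a peak against the rest of its library, and the part of this shift in any single peak was not tested. The neuronal label was checked on promoter markers: the 5 pan-neuronal genes and the 6 granule neuron genes all had a promoter peak, with median levels of 6.54 and 5.37 CPM (counts per 1000000 reads of the scaled library total) per kb, against 2.71 for astrocytes (4 of 5 genes), 2.24 for oligodendrocytes (4 of 5), 2.41 for their precursors (3 of 3), 2.07 for microglia (4 of 5), 3.47 for interneurons (1 of 6) and 3.41 for CA pyramidal neurons (4 of 5). None of 4 endothelial genes had a promoter peak. Single genes overlapped between neuronal and glial lists. Pan-neuronal genes ran from 2.974 (Stmn2) to 6.851 (Snap25) CPM per kb, and granule neuron genes from 2.8 (Dsp) to 8.1 (Rfx3). Astrocyte genes reached 4.877 (Slc1a3), oligodendrocyte genes 4.09 (Mbp) and microglial genes 3.999 (P2ry12). The check therefore does not settle how pure the nuclei were. Summed over the microglial genes, the level was 8.48 to 10.7 CPM per kb in HDACi-CFC, 10.1 to 18.1 in Veh-CFC, 5.95 to 7.22 in HDACi-Context and 8.39 to 9.96 in Veh-Context libraries, lowest in the same group as the promoter share. The lowest library of every list with a promoter peak, neuronal lists included, was a HDACi-Context library, and the part of these levels in the results was not tested. In sorted bulk nuclei, fewer nuclei of a type and less acetylation per nucleus cannot be told apart.

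Per kb of peak, the strongest promoter peak of each of the 69 genes ranged from 1.72 CPM in Kcnd1, an A-type channel gene, to 8.25 CPM in Kcnk1, a two-pore channel gene, averaged over all libraries. Next below Kcnk1 came Kcnab2, a cytoplasmic beta subunit of Shaker channels, at 6.87 CPM per kb, and Kcnj6 and Kcnj9, subunits of the G-protein-gated GIRK channels, at 6.76 and 6.66. Kcn promoter peaks had a median width of 1931 bp and reached 33088 bp in Kcnab2.

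**Figure D1:**
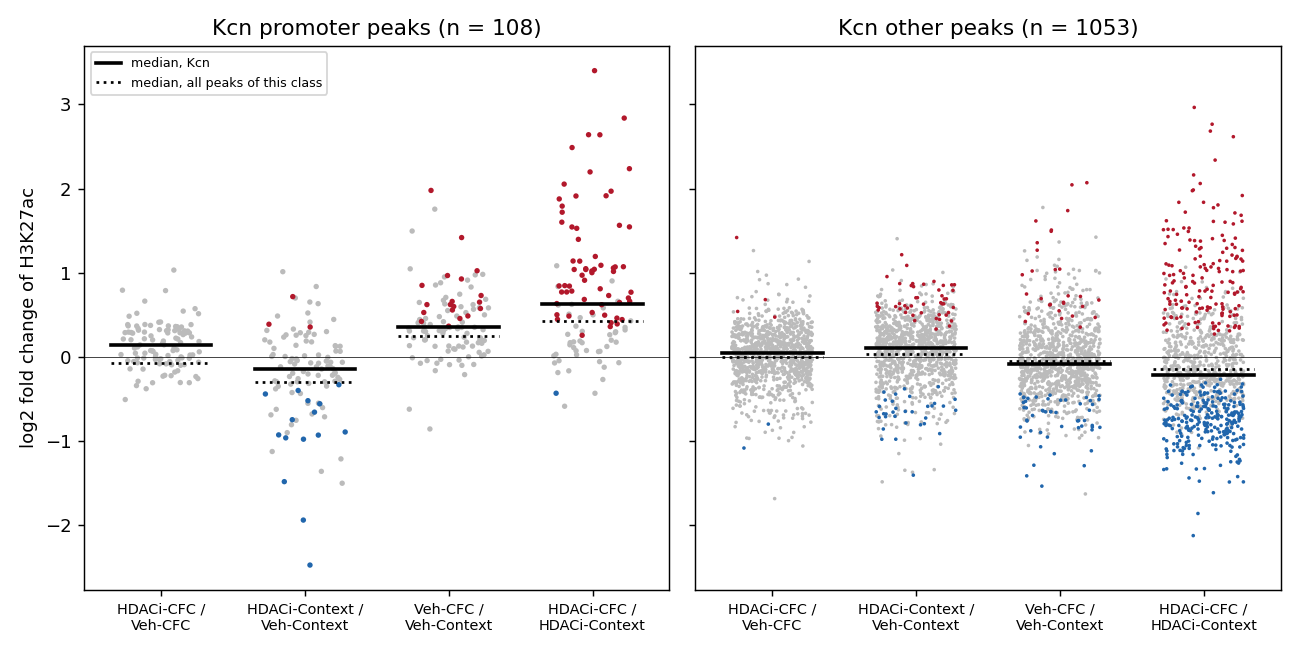
Log2 fold change of every Kcn peak in 4 comparisons, promoter peaks on the left and other peaks on the right; red points were called higher and blue points lower at an adjusted p under 0.05, solid bars are Kcn medians and dotted bars the medians of all peaks of that class. Promoter peaks lie mostly above 0 in HDACi-CFC against HDACi-Context (62 called higher, 1 lower), and other peaks spread both ways (166 higher, 266 lower).

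Most of the change at potassium channel genes lay between shocked and unshocked mice that had both been given CI-994. Of the 108 Kcn promoter peaks, 62, belonging to 49 genes, were higher in HDACi-CFC than in HDACi-Context, and 1 was lower. That is 57.4% of them higher, while 45.3% of all promoter peaks were higher and 2.02% lower (edgeR's quasi-likelihood test, Benjamini-Hochberg adjusted p under 0.05 over all 144014 peaks tested; all Kcn peaks passed the low-count filter). The median log2 fold change was 0.63 over Kcn promoter peaks and 0.42 over all promoter peaks. Leaving out any 1 library gave 53 to 72 rises, and scaling to library totals, which moves the median log2 change of all peaks by -0.13, gave 52.

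Among voltage-gated channels 5 of 5 promoter peaks rose in the Shaw group, whose genes encode the fast delayed rectifiers of rapidly firing neurons. Of all promoter peaks 45.3% were higher in this comparison, and 60.5% of those at least 2 kb wide. Neither the count of this channel group nor those of the groups below were tested against these shares. Kcnc2 had 6.01, 4.47 and 4.87 CPM in HDACi-CFC libraries, against 2.02, 1.10 and 1.02 CPM in HDACi-Context libraries. The lowest shocked library lay above the highest unshocked one, a log2 change of 1.91 ± 0.27 (SE; adjusted p = 4.29e-07). Kcnc4 and Kcnc1 rose less, by 0.78 ± 0.12 and 0.73 ± 0.18 on the log2 scale (adjusted p = 1.88e-06 and 0.00129).

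In the Shaker group, whose members form low-threshold axonal channels, 6 of 9 promoter peaks rose and none fell. Kcna6 changed most, with 5.22, 4.16 and 3.78 CPM in HDACi-CFC libraries, against 1.11, 0.695 and 0.544 CPM in HDACi-Context libraries. These 3 shocked libraries all stood above the unshocked ones, at a log2 change of 2.49 ± 0.34 (adjusted p = 7.83e-07). Kcna2 and Kcna4, the A-type member of the group, rose by 0.62 ± 0.11 and 0.65 ± 0.12. In the Shab group of delayed rectifiers 2 of 4 promoter peaks rose and 0 fell. Its member Kcnb2 had 0 of 2 promoter peaks called, at log2 changes of 0.06 ± 0.31 and 0.35 ± 0.15. The Shal genes, which carry the dendritic A-type current, had 2 of 4 called: Kcnd1 at 1.09 and the weaker of the Kcnd2 peaks at 0.41, while the strongest Kcnd2 peak and that of Kcnd3 stood at 0.07 ± 0.13 and 0.19 ± 0.12 and were not called.

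KCNQ genes encode channels of the M-current, a slow current that restrains repetitive firing. Here 3 of 6 promoter peaks rose. Kcnq3 stood at 0.06 ± 0.10 (adjusted p = 0.649), but was called lower with loess offsets (-0.39, adjusted p = 0.000239). Kcnq5 had its rise on a narrow peak 1225 bp from the TSS, with 2.97, 1.77 and 2.18 CPM in HDACi-CFC libraries, against 0.695, 0.348 and 0.068 CPM in HDACi-Context libraries. The last value is a count of 1, the lowest in every library, which may stand for an empty cell. The same holds for HDACi-Context 3 at the Kcnk13 and Kcnq1ot1 peaks below. The groups were apart at this narrow Kcnq5 peak (2.64 ± 0.45, adjusted p = 2.42e-05), but the peak that spans the Kcnq5 start stood at 0.12 ± 0.18. Of the EAG, ERG and ELK group 6 of 11 rose, led by Kcnh2, the ERG channel gene, at 2.24 ± 0.44 (adjusted p = 0.000129), with mean raw counts of 27 in HDACi-CFC and 7.33 in HDACi-Context libraries.

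Silent subunits, which open no pore alone and join other Kv pore subunits, had 7 of 14 promoter peaks higher, among them Kcng1 at 1.06 ± 0.12 (adjusted p = 3.11e-09) and Kcnf1 at 0.84 ± 0.13 (adjusted p = 1.16e-06). Of the Kv auxiliary genes 4 of 6 promoter peaks rose, including that of Kcnab2, at 312, 343 and 319 CPM in HDACi-CFC libraries, against 151, 107 and 76.2 CPM in HDACi-Context libraries. All shocked libraries exceeded all unshocked ones (1.54 ± 0.20, adjusted p = 0.000137). Kcnab1, another beta subunit gene, held the single promoter peak that fell, over one of its inner starts, at 7.10, 5.10 and 6.38 CPM in HDACi-CFC libraries, against 8.69, 7.94 and 8.77 CPM in HDACi-Context libraries. The groups were apart but close (-0.43 ± 0.16, adjusted p = 0.0326), and the call was lost with loess offsets, with DESeq2 and without Veh-Context 3, HDACi-Context 1 or 3, or HDACi-CFC 2 or 3 (adjusted p up to 0.159). Its larger promoter peak rose by 0.49 ± 0.10 (adjusted p = 0.000274), and that call too was lost with loess offsets (adjusted p = 0.098).

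Of the calcium- and sodium-activated channels 9 of 12 promoter peaks rose, including Kcnn1, Kcnn2 and Kcnn3 of the small-conductance (SK) channels, which contribute to the afterhyperpolarisation. Kcnn3 had 28.1, 30.0 and 31.2 CPM in HDACi-CFC libraries, against 16.8, 13.3 and 10.5 CPM in HDACi-Context libraries. No library overlapped (1.14 ± 0.14, adjusted p = 1.63e-08). Kcnn1 rose by 1.56 ± 0.26 and Kcnn2 by 0.68 ± 0.13. Kcnt1, a sodium-activated channel gene, rose by 2.64 ± 0.53 on a weak peak with mean raw counts of 19.7 in HDACi-CFC and 4 in HDACi-Context libraries. Kcnma1, the BK channel gene, was called at 0.26 ± 0.10 (adjusted p = 0.0494), but stood at -0.07 with loess offsets and lost its call in 9 of 12 fits that left out a library.

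Inward rectifiers had 9 of 13 promoter peaks higher. Kcnj4, a strong inward rectifier of forebrain neurons, had 12.8, 15.7 and 11.7 CPM in HDACi-CFC libraries on the peak upstream of its start, against 4.38, 3.83 and 2.65 CPM in HDACi-Context libraries. That was a log2 change of 1.88 ± 0.18 (adjusted p = 1.1e-10) with no overlap. Kcnj11, the pore subunit of the ATP-sensitive channel, had 26.3, 30.2 and 28.6 CPM in HDACi-CFC libraries, against 10.7, 7.94 and 5.92 CPM in HDACi-Context libraries. It too was apart in every library (1.79 ± 0.24, adjusted p = 5.73e-05). The GIRK genes split: Kcnj9 and Kcnj6 rose by 0.70 ± 0.11 and 0.63 ± 0.11 at their largest promoter peaks (Kcnj6 was not called with loess offsets), while Kcnj3 stood at 0.02 under TMM scaling and was called lower with loess offsets (-0.43, adjusted p = 9.58e-05). Kcnj10, best known from astrocytes, rose by 1.07 ± 0.21 (adjusted p = 8.58e-05).

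Two-pore channels, which carry the background leak, had 7 of 17 promoter peaks higher. Kcnk13, known chiefly from microglia, changed most of all Kcn promoters, with 3.40, 2.39 and 2.69 CPM in HDACi-CFC libraries, against 0.626, 0.116 and 0.068 CPM in HDACi-Context libraries. The groups were far apart (3.40 ± 0.62, adjusted p = 0.000276), on mean raw counts of 34 and 4. The peak just upstream of the Kcnk13 start stood at -0.43 ± 0.25. Kcnk1 rose by 0.97 ± 0.12 (adjusted p = 1.2e-07). The noncoding Kcnq1ot1, an imprinted RNA that starts within Kcnq1 and is transcribed against it, had 3.04, 3.33 and 3.53 CPM in HDACi-CFC libraries just downstream of the printed window, against 0.556, 0.695 and 0.068 CPM in HDACi-Context libraries. It was apart in every library (2.84 ± 0.37, adjusted p = 1.36e-07), whereas the peak just upstream stood at 0.14. The strongest Kcnq1ot1 promoter peak, 2157 bp wide, was not called, and the median over all 3 was 0.43.

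**Figure D2:**
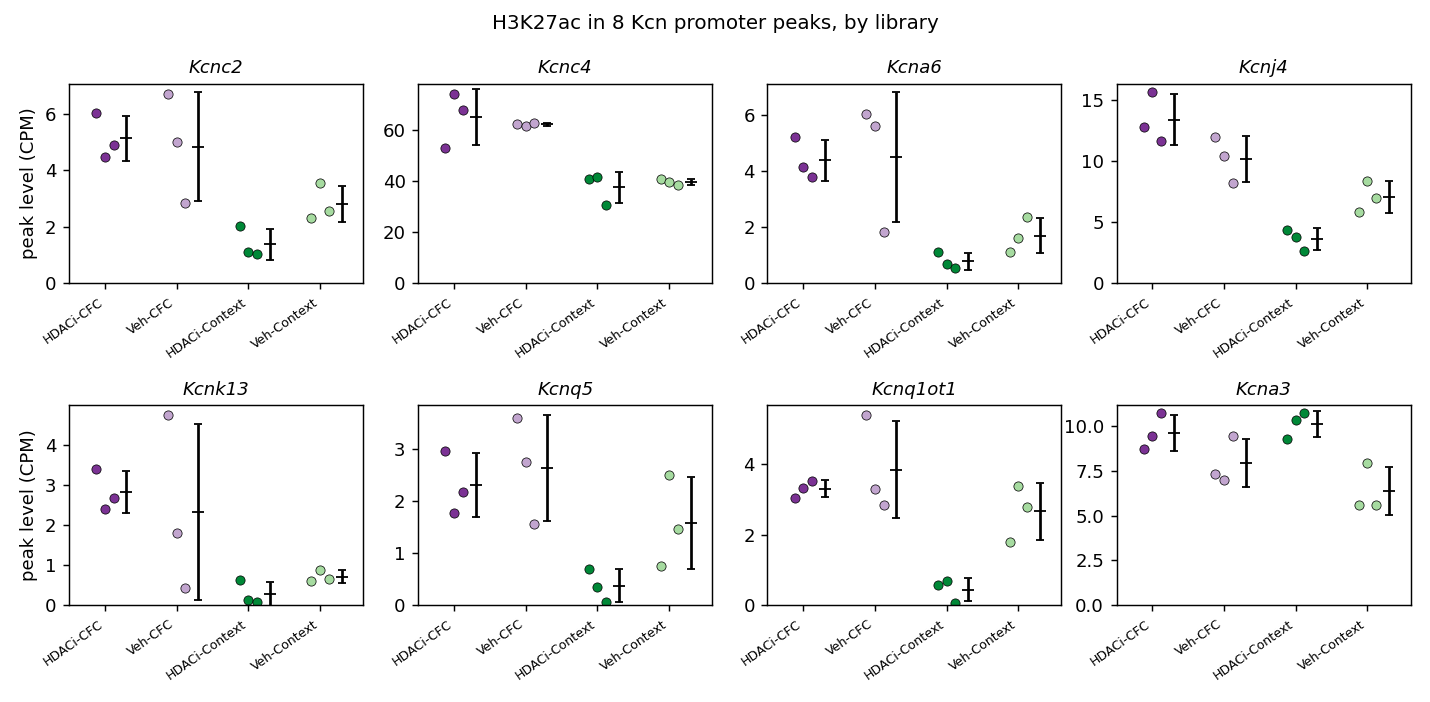
H3K27ac level in CPM of 8 Kcn promoter peaks in each library (points), with the mean and SD of the 3 libraries beside them; axes start at 0. HDACi-Context has the lowest mean in 7 panels (Kcnc2 at 1.02 to 2.02 CPM, for example), and Kcna3 is the exception.

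Peaks outside promoters moved both ways in HDACi-CFC against HDACi-Context: 166 of 1053 were higher and 266 lower. The share higher, 15.8%, was the same as that of all 122527 other peaks (15.8%), and the share lower, 25.3%, compares with 20.5% of all other peaks. Peaks over 200 kb from the TSS made up 170 of these Kcn peaks and 11171 of all other peaks, and direction went with distance, as given below. Without HDACi-Context 3 the lower count was 168, DESeq2 gave 151 higher and 167 lower, and scaling to library totals gave 133 higher and 380 lower. By channel group, with no test between groups, Shaw genes had 17 of 37 other peaks higher and 2 lower. Shal genes had 0 of 39 higher and 21 lower, Shaker genes 11 of 98 higher and 38 lower, calcium- and sodium-activated channels 11 of 178 higher and 46 lower, and Kv auxiliary genes 4 of 45 higher and 20 lower. KCNQ genes (13 higher, 23 lower of 72), inward rectifiers (33, 49 of 150), silent subunits (31, 24 of 151), two-pore channels (20, 13 of 99) and the EAG, ERG and ELK group (10, 16 of 103) were mixed.

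**Figure D3:**
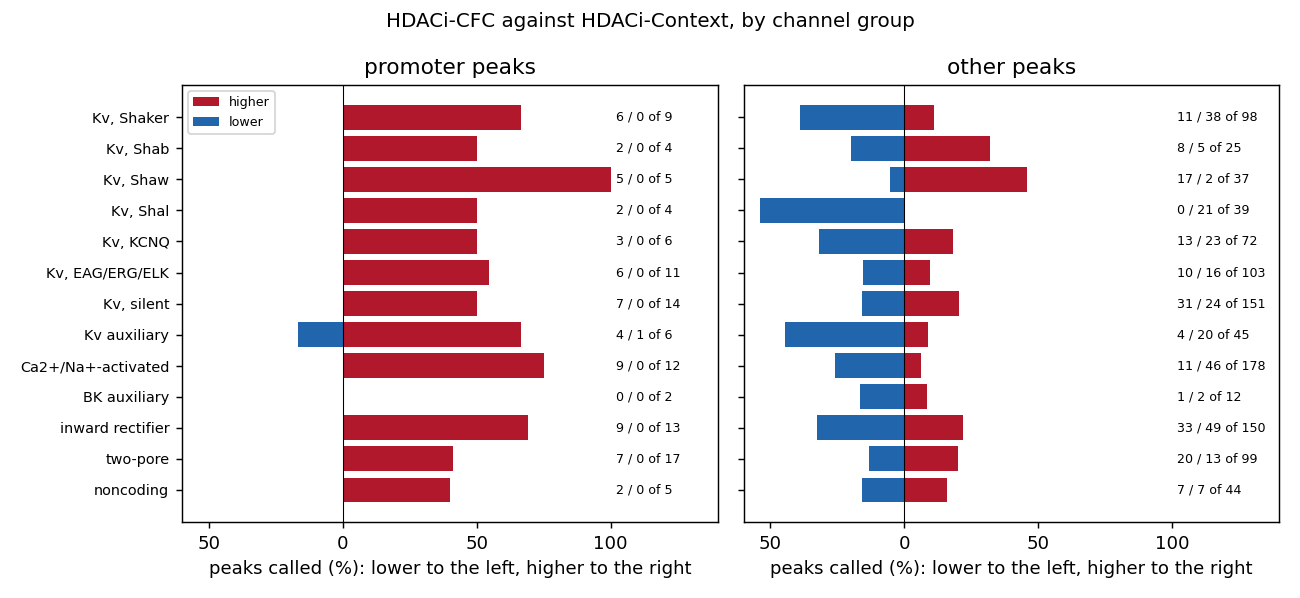
Share of Kcn peaks called in HDACi-CFC against HDACi-Context by channel group, promoter peaks on the left and other peaks on the right; red bars to the right are peaks higher, blue bars to the left peaks lower, and the numbers give higher / lower of all. Shaw promoters are higher throughout (5 of 5) and Shal other peaks are lower in 21 of 39 and higher in 0.

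Kcnj3, a GIRK subunit gene, had 34 of its 43 other peaks lower and 0 higher, and Kcna4 had 32 of 41 lower and 0 higher. Kcnma1 had 27 of 97 lower and 2 higher, Kcnd2 14 of 21 lower and 0 higher, and the silent subunit gene Kcnv1 14 of 17 lower and 0 higher. The other way, Kcnj11 had 9 of 10 higher and 0 lower, Kcnc1 10 of 19 higher and 0 lower and Kcng1 18 of 45 higher and 3 lower. Kcnq3 had 15 of 31 other peaks lower and 0 higher. Of all other peaks 15.8% were higher and 20.5% lower, and of all those over 200 kb from the TSS 2.18% and 48.3%. The gene counts were not tested against these shares.

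At the Kcnj3 locus the largest drop was on an intergenic peak 250719 bp from the TSS, at 0.217, 0.728 and 0.084 CPM in HDACi-CFC libraries, against 1.25, 1.74 and 1.22 CPM in HDACi-Context libraries. The groups did not overlap (-2.13 ± 0.52, adjusted p = 0.00126). The last HDACi-CFC value is a count of 1, the lowest there is, which may stand for an empty cell, so the size of this drop is imprecise. A peak at 262840 bp had 0.869, 0.312 and 0.924 CPM in HDACi-CFC libraries, against 2.85, 2.55 and 2.65 CPM in HDACi-Context libraries. It was apart as well (-1.86 ± 0.35, adjusted p = 5.94e-05), and that at 405581 bp changed by -1.62 ± 0.28. At Kcnj4 the peaks rose along the locus: besides the upstream promoter peak, the peak over the gene body rose by 1.60 ± 0.22, that at 21139 bp by 2.34 ± 0.35 (adjusted p = 1.24e-06) and that 4993 bp upstream by 1.38 ± 0.18 (adjusted p = 5.06e-07). At Kcnj11, peaks assigned to the gene lie inside Nomo1 and inside Abcc8, which encodes the channel's sulphonylurea receptor; one inside Abcc8 had 23.2, 30.8 and 25.9 CPM in HDACi-CFC libraries, against 16.0, 15.7 and 8.16 CPM in HDACi-Context libraries, with no overlap (0.99 ± 0.18, adjusted p = 0.000272).

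In 25 genes a promoter peak rose while at least 1 other peak fell in this comparison, among them Kcna4, Kcnc2, Kcnd2, Kcnh1, Kcnj6, Kcnma1, Kcnn2, Kcnq5 and Kcnt2. Kcn genes with a promoter rise numbered 49, and those with a drop at another peak 46. Genes with both were not counted over the whole series, so the 25 are not a result about Kcn genes. Distance from the TSS went with the direction. Of other peaks up to 10 kb away 41 of 121 were higher and 14 lower (33.9% and 11.6%; all such peaks 26.6% and 9.02%), and of those over 200 kb away 2 of 170 were higher and 87 lower (1.18% and 51.2%; all such peaks 2.18% and 48.3%). The Kcn shares lay near those of all peaks at the same distances, so this is not a result about Kcn genes. By chromatin state as deposited, 106 of 438 other Kcn peaks in active enhancers were higher and 63 lower (24.2% and 14.4%; all 25.8% and 12.9%). In the state the file names control, 20 of 311 were higher and 123 lower (6.43% and 39.5%; all 9.6% and 28%).

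**Figure D4:**
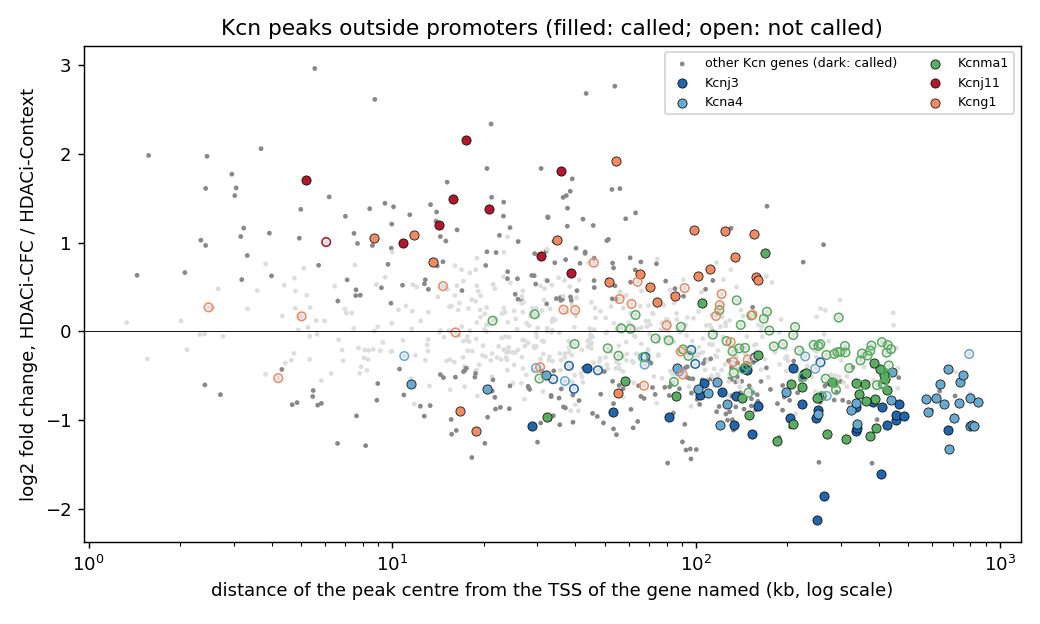
Log2 fold change of the 1053 other Kcn peaks in HDACi-CFC against HDACi-Context, by distance of the peak centre from the TSS (kb, log axis); filled points were called and open points not, with 5 genes in colour. Peaks of Kcnj3, Kcna4 and Kcnma1 lie mostly below 0 at long distances, and those of Kcnj11 (9 of 10 called higher) lie above 0 at shorter distances.

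Under vehicle, shock went with fewer calls. Depth differed as well: totals were 7222654 to 9666039 reads in Veh-CFC and 6639158 to 13711438 in Veh-Context libraries. They were 10153795 to 14132205 in HDACi-CFC and 13533876 to 16734757 in HDACi-Context libraries. The part of depth in how many calls each comparison had was not tested, and the interaction below was called at 1 Kcn peak. Of the Kcn promoter peaks 19, of 18 genes, were higher in Veh-CFC than in Veh-Context and 0 were lower. That is 17.6% higher, against 14.1% of all promoter peaks higher and 0.47% lower; the unadjusted p was under 0.05 for 50 rises and 0 drops (31.7% and 2.76% of all promoter peaks), and DESeq2 called 18 higher and 0 lower. All 19 were among the 62 that rose under CI-994, where 45.3% of all promoter peaks rose. The overlap was not counted over all promoter peaks, so it is not a result about Kcn genes. Median log2 changes were 0.35 over Kcn promoters and 0.25 over all promoters. The count was 2 without Veh-Context 1, 6 without Veh-CFC 1, 9 without Veh-CFC 2 and 30 without Veh-CFC 3, so single libraries decide much of it.

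The Shaw genes were higher in 4 of 5 promoter peaks. That count was not tested against the share of all promoter peaks, 14.1%, or of those at least 2 kb wide, 24.5%. Kcnc4 had 62.4, 61.4 and 62.7 CPM in Veh-CFC libraries, against 40.9, 39.6 and 38.4 CPM in Veh-Context libraries. Every shocked library lay above every unshocked one, and the log2 change of 0.65 ± 0.12 (adjusted p = 0.00156) kept its call without any single library. Kcnc2 was called at 0.85 ± 0.27 (adjusted p = 0.0447), but lost its call in 8 of the 12 fits without a library (adjusted p up to 0.354), with library totals and with DESeq2. Kcna6 had 6.04, 5.62 and 1.84 CPM in Veh-CFC libraries, against 1.12, 1.62 and 2.35 CPM in Veh-Context libraries. Veh-CFC 3 lay inside the unshocked range, and the log2 change of 1.42 ± 0.33 (adjusted p = 0.00872) was not called without Veh-Context 1, Veh-CFC 1 or Veh-CFC 2 (adjusted p up to 0.0815).

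Kcnn3 had 32.5, 31.3 and 27.9 CPM in Veh-CFC libraries, against 16.6, 20.9 and 22.4 CPM in Veh-Context libraries. The groups were apart (0.62 ± 0.14, adjusted p = 0.00581), and the call was lost only without Veh-Context 1 (adjusted p = 0.0848). Other promoter rises were Kcnk1 at 0.53 ± 0.13, Kcnn2 at 0.56 ± 0.13 and Kcnh5, an EAG-type channel gene, at 1.02 ± 0.26. Kcnk1 lost its call without Veh-Context 1 or 2 (adjusted p up to 0.0543), Kcnn2 without Veh-CFC 1 (0.0729) and Kcnh5 without Veh-Context 1 or Veh-CFC 1 or 2 (up to 0.145).

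Outside promoters 29 Kcn peaks were higher and 51 lower in Veh-CFC than in Veh-Context, or 2.75% and 4.84%, against 2.71% and 3.14% of all other peaks. The higher count was 5 without Veh-Context 1, 16 without Veh-Context 2, 4 without Veh-CFC 1 and 14 without Veh-CFC 2; the lower count was 11, 30, 7 and 24 without the same libraries and 23 without Veh-Context 3. DESeq2 gave 17 higher and 27 lower. Kcna4 held 11 of the drops and Kcnj3 8. The Kcnj3 peak 405581 bp from the TSS had 1.03, 1.06 and 0.708 CPM in Veh-CFC libraries, against 2.99, 2.94 and 2.43 CPM in Veh-Context libraries. Shocked libraries were all below unshocked ones (-1.54 ± 0.34, adjusted p = 0.00494), and the call held without any single library, as it did for Kcnj3 peaks at 251711 bp and 484284 bp (-1.30 ± 0.27 and -1.12 ± 0.24). Of the other peaks called under vehicle, 25 of 29 rises and 46 of 51 drops were called the same way under CI-994, and 0 the opposite way. That overlap, too, was not counted over all other peaks.

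CI-994 without shock went with promoter drops. In HDACi-Context against Veh-Context, 15 Kcn promoter peaks of 13 genes were lower and 3 higher, or 13.9% and 2.78%, while 21.3% of all promoter peaks were lower and 0.917% higher. The median log2 change was -0.14 over Kcn promoters and -0.30 over all promoters. The lower count was 23 without HDACi-Context 1, 9 without HDACi-Context 2, 8 without HDACi-Context 3 and 6 without Veh-Context 3. The higher count was 0 without Veh-Context 3, 1 without HDACi-Context 2 and 6 without Veh-CFC 1, and it was 5 with library totals or loess offsets, beside 11 and 12 lower.

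The deepest drop was at Kcnq1ot1, with 0.556, 0.695 and 0.068 CPM in HDACi-Context libraries, against 1.79, 3.39 and 2.79 CPM in Veh-Context libraries. The groups were apart, on mean raw counts of 7 and 28.3, and the log2 change of -2.48 ± 0.39 (adjusted p = 3.18e-05) was called without any single library. Of the 3 Kcnq1ot1 promoter peaks 2 were called lower, and the strongest, 2157 bp wide, was not. Among channel genes, Kcnj9 had 28.4, 27.5 and 26.0 CPM in HDACi-Context libraries, against 35.8, 38.3 and 37.3 CPM in Veh-Context libraries. That small but even drop (-0.44 ± 0.11, adjusted p = 0.00696) held without any single library, and so did that of Kcnj10 (-0.89 ± 0.21, adjusted p = 0.00452). Kcnq5, Kcnh2 and Kcnc2 were called lower at -1.94 ± 0.50, -1.48 ± 0.48 and -0.98 ± 0.30, but Kcnq5 and Kcnc2 lost their calls without Veh-Context 2 or 3 or HDACi-Context 2 or 3 (adjusted p up to 0.0694 and 0.167), and Kcnh2 in 8 of 12 fits without a library (up to 0.377) and with library totals. The Kcnq5 drop was again on the narrow peak away from the TSS. The peak that spans the Kcnq5 start was not called, and the median over the 2 was -0.81.

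The 3 promoter rises were at Kcna3, Kcnj3 and Kcnma1. Kcna3, a Shaker gene best known from T cells, had 9.32, 10.4 and 10.7 CPM in HDACi-Context libraries, against 5.60, 7.95 and 5.59 CPM in Veh-Context libraries. All treated libraries were above the vehicle ones (0.72 ± 0.17, adjusted p = 0.00343), and the call was lost only without Veh-Context 3 (adjusted p = 0.0594). Kcnj3 had 108, 129 and 123 CPM in HDACi-Context libraries, against 95.9, 86.1 and 93.3 CPM in Veh-Context libraries. The groups were apart (0.39 ± 0.10, adjusted p = 0.0124), with the call lost without Veh-Context 2 or 3 or HDACi-Context 2 (adjusted p up to 0.105). Kcnma1 had 61.1, 57.8 and 60.5 CPM in HDACi-Context libraries, against 47.1, 44.0 and 49.0 CPM in Veh-Context libraries, a log2 change of 0.35 ± 0.11 (adjusted p = 0.0283). Its groups were apart too, but the call was lost without Veh-Context 1, 2 or 3 or HDACi-Context 2 or 3 (adjusted p up to 0.108).

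Other Kcn peaks were higher in 46 and lower in 33 cases (4.37% and 3.13%; all other peaks 3.05% and 3.15%), or 78 and 23 with library totals and 71 and 24 with loess offsets. The higher count was 30, 26 and 12 without Veh-Context 1, 2 and 3 and 74, 14 and 20 without HDACi-Context 1, 2 and 3; the lower count was 11 without Veh-Context 3 and 51, 15 and 15 without HDACi-Context 1, 2 and 3. Kcnj3 held 10 of the rises and Kcna4 and Kcnq3 5 each. The largest was in an intron of Kcnt2, a sodium-activated channel gene, at 3.13, 5.45 and 5.85 CPM in HDACi-Context libraries, against 2.17, 1.47 and 2.35 CPM in Veh-Context libraries. No library overlapped (1.21 ± 0.26, adjusted p = 0.00123), and no single library decided the call. Among the drops, the peak 4993 bp upstream of Kcnj4 had 7.16, 5.74 and 4.15 CPM in HDACi-Context libraries, against 9.41, 10.3 and 13.7 CPM in Veh-Context libraries. It was below in all 3 (-0.98 ± 0.19, adjusted p = 0.00069).

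CI-994 in shocked mice went with the fewest calls. In HDACi-CFC against Veh-CFC, 0 of 108 Kcn promoter peaks were called in either direction, against 0.652% of all promoter peaks higher and 2.13% lower. The unadjusted p was below 0.05 for 16 rises and 1 drop, whereas 6.29% of all promoter peaks were higher and 15.3% lower, and DESeq2 called 4 higher and 0 lower. The median log2 change was 0.14 over Kcn promoters and -0.08 over all promoters. Without Veh-CFC 1, HDACi-Context 1 or HDACi-Context 3, edgeR called 2, 1 and 1 higher. The nearest to a call was the 24044 bp promoter peak of Kcnq3, with 121, 123 and 126 CPM in HDACi-CFC libraries, against 88.9, 101 and 95.4 CPM in Veh-CFC libraries. The groups were apart there (0.37 ± 0.10, adjusted p = 0.055).

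Of the other Kcn peaks 4 were higher and 2 lower (0.38% and 0.19%; all other peaks 0.454% and 0.137%), and 79 and 42 had an unadjusted p under 0.05 (5.69% and 4.86% of all other peaks). Kcnh4, an ELK channel gene, had 3.19, 2.81 and 3.19 CPM in HDACi-CFC libraries over an exon, against 0.899, 1.59 and 0.849 CPM in Veh-CFC libraries. This was the largest of the rises (1.42 ± 0.34, adjusted p = 0.0243), with groups apart. Kcnq3 had 106, 111 and 107 CPM in HDACi-CFC libraries on a 19864 bp intronic peak, against 70.5, 82.3 and 80.7 CPM in Veh-CFC libraries. The groups were again apart (0.47 ± 0.10, adjusted p = 0.0141), and the same peak was higher by 0.33 ± 0.10 with CI-994 in unshocked mice. The silent subunit genes Kcng2 and Kcng1 had the other rises, at 0.68 ± 0.17 and 0.54 ± 0.14 (adjusted p = 0.0306 and 0.0458), and that of Kcng1 was not called with library totals or loess offsets.

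The drops were at Kcnd3, an A-type channel gene, and Kcnu1, a pH-sensitive relative of the BK channel gene known from sperm. Kcnd3 had 1.67, 1.87 and 1.93 CPM in HDACi-CFC libraries, against 2.44, 4.45 and 4.67 CPM in Veh-CFC libraries (-1.09 ± 0.27, adjusted p = 0.0362). Kcnu1 had 7.10, 7.18 and 6.72 CPM in HDACi-CFC libraries, against 9.63, 13.7 and 13.2 CPM in Veh-CFC libraries (-0.80 ± 0.17, adjusted p = 0.00994). Neither pair of groups overlapped, and Kcnu1 was also called lower without shock (-0.61 ± 0.15). Of these 6 calls 0 held in all 12 fits that left out a library. Without HDACi-CFC 1, 2 and 3 there were 2, 0 and 0 rises and 0, 1 and 0 drops. Without Veh-CFC 1, 2 and 3 there were 3, 1 and 1 rises and 5, 0 and 1 drops, and without HDACi-Context 2 there were 3 and 1.

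The difference between the CI-994 effects in shocked and unshocked mice was tested directly as an interaction. It was called at 1 Kcn promoter peak, upstream of Kcnj4, and at 0 other Kcn peaks (0.926% of Kcn promoter peaks; all promoter peaks 0.14%; all other peaks 0.0155% higher and 0.000816% lower). Kcnj4 had 12.8, 15.7 and 11.7 CPM in HDACi-CFC libraries, 11.9, 10.4 and 8.21 CPM in Veh-CFC libraries, 4.38, 3.83 and 2.65 CPM in HDACi-Context libraries and 5.82, 8.39 and 6.98 CPM in Veh-Context libraries. CI-994 libraries overlapped vehicle ones in shocked mice (0.38 ± 0.17, not called) and lay below them in unshocked mice (-0.93 ± 0.20, adjusted p = 0.00121). The interaction was 1.31 ± 0.26 (adjusted p = 0.0368), held in 3 of 12 fits without a library, those without Veh-Context 1, Veh-CFC 1 and HDACi-Context 1, and was not called with library totals or loess offsets. At an unadjusted p under 0.05, 25 Kcn promoter peaks had a positive interaction and 0 a negative one (16.6% and 0.796% of all promoter peaks), and 62 and 55 other Kcn peaks did (5.78% and 4.65% of all other peaks); DESeq2 called 3 promoter peaks and 8 other peaks, all positive. Without HDACi-Context 1, Veh-CFC 1 and Veh-Context 1 edgeR called 12, 6 and 3 promoter peaks and 25, 12 and 8 other peaks positive, with 3, 4 and 2 other peaks negative.

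Over a list of 39 channel genes known from hippocampal neurons, each by its strongest promoter peak, 27 rose and 0 fell in HDACi-CFC against HDACi-Context, 14 rose and 0 fell in Veh-CFC against Veh-Context, 2 rose and 7 fell in HDACi-Context against Veh-Context, and 0 were called in HDACi-CFC against Veh-CFC. Over all promoter peaks 45.3%, 14.1% and 0.917% were higher and 2.02%, 0.47% and 21.3% lower in the first 3 of these comparisons. Of all promoter peaks at least 2 kb wide 60.5%, 24.5% and 2.08% were higher and 1.92%, 0.428% and 25.4% lower in the same comparisons. The list was not tested against these shares. Of 32 partner genes for Kv-interacting proteins, HCN channels, calmodulins, scaffolds and axonal clustering proteins, 27 had a promoter peak, and their counts are to be read against the same shares. In HDACi-CFC against HDACi-Context 20 of these rose and 0 fell, such as Kcnip3, a calcium-binding subunit of A-type channels, at 1.26 ± 0.12 (adjusted p = 1.34e-10), and Cntn2, which clusters Shaker channels beside nodes of Ranvier, at 1.32 ± 0.16 (adjusted p = 7.9e-08). In Veh-CFC against Veh-Context 6 rose and 0 fell, and in HDACi-Context against Veh-Context 1 rose and 8 fell. In HDACi-CFC against Veh-CFC, where no Kcn promoter was called, the calmodulin gene Calm2 rose by 0.79 (adjusted p = 0.000344) and the scaffold gene Dlg1 changed by -0.50 (adjusted p = 0.0419).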

How the data were processed

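The deposited table holds raw counts of reads per peak in 1 peak set shared by 12 libraries, per the file headers; the inputs were not analysed here. Tools listed without roles, per the submitters' processing notes, were DiffBind 2.16.2, MACS2, HOMER 4.11, DESeq2 1.28.1, Trimmomatic 0.38, SAMtools 1.9 and Bowtie2 2.3.5, on mm10. The lowest count is 1 in every library, so empty cells appear to have been raised to 1. Its columns are taken as the H3K27ac libraries. Counts were fitted with edgeR 4.0.16 (R 4.3.3; TMM scaling, at least 10 counts by filterByExpr, quasi-likelihood test) over all peaks and the 4 groups, with Benjamini-Hochberg adjustment; 144014 peaks were tested. The fit was tested on simulated data. Alternatives were library totals, loess offsets, no filter, a replicate block, DESeq2 1.42.0, a narrower promoter limit and leaving out each library. The named peaks are the 6 largest rises and drops of each class and comparison and the strongest promoters of 39 listed genes; Kcnd1 and peaks beside named ones were added after their values were seen. The members and lists were chosen with earlier results of these data known. The series text mentions another number of groups and replicates than the sample labels, which were followed. Some genes are not reported here by name.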

Additional observations from a re-analysis of the deposited data

Results flagged for a closer look

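The promoter peak upstream of Kcnj4 was singled out because the CI-994 effect differed between shocked and unshocked mice in a test of that difference, an interaction of 1.31 on the log2 scale (edgeR's quasi-likelihood test, adjusted p = 0.0368). CI-994 went with a log2 change of 0.38 in shocked mice and -0.93 in unshocked mice. The adjusted p was up to 0.326 when a library was left out.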

How the results depend on the processing

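Counts of called Kcn peaks that moved by over 1.5 times are given by setting; the cause was not tested. DESeq2 called 4 promoter peaks higher, 8 other peaks higher and 1 lower for CI-994 in shocked mice, 29 other peaks higher for CI-994 in unshocked mice, 17 other peaks higher and 27 lower for shock under vehicle, 0 promoter peaks and 167 other peaks lower for shock under CI-994, and 3 promoter and 8 other peaks higher for the interaction. Library totals gave 5 promoter and 78 other peaks higher for CI-994 in unshocked mice, 2 promoter peaks lower for shock under CI-994 and 0 interactions at promoters; loess offsets gave 5, 71, 3 and 0. With promoters limited to peaks that span the TSS, which leaves 32 of 108, CI-994 in unshocked mice had 1 higher and 4 lower, shock had 8 higher under vehicle and 21 under CI-994, and the interaction had 0 promoter peaks and 1 other peak higher.

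With loess offsets the log2 change for shock under CI-994 turned to -0.43 at the Kcnj3 promoter, -0.26 at Kcnv1 and -0.39 at Kcnq3, all 3 then called lower (adjusted p = 9.58e-05, 0.0231 and 0.000239), and to -0.066 at Kcnma1, not called (adjusted p = 0.586). Of the named calls, those kept in all 12 fits without a library were 40 of 46 for shock under CI-994, 4 of 29 for shock under vehicle, 6 of 26 for CI-994 in unshocked mice, 0 of 6 for CI-994 in shocked mice and 0 of 1 for the interaction.

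Leaving out each library in turn gave, for shock under CI-994, 53 to 72 promoter peaks higher and 0 to 1 lower, and 116 to 190 other peaks higher and 168 to 293 lower. For shock under vehicle it gave 2 to 30 promoter peaks higher, and 4 to 40 other peaks higher and 7 to 58 lower. For CI-994 in unshocked mice it gave 0 to 6 promoter peaks higher and 6 to 23 lower, and 12 to 74 other peaks higher and 11 to 51 lower. For CI-994 in shocked mice it gave 0 to 2 promoter peaks higher, and 0 to 6 other peaks higher and 0 to 5 lower. For the interaction it gave 0 to 12 promoter peaks higher, and 0 to 25 other peaks higher and 0 to 4 lower.

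Libraries with the same replicate number did not deviate together throughout (correlations of -0.28 to 0.35), and the main fit did not pair them. With 3 libraries a group this check cannot exclude a pairing. A replicate block gave 64 promoter peaks higher for shock under CI-994 and 19 under vehicle, 15 lower for CI-994 in unshocked mice, and 1 other peak lower for the interaction. With 3 libraries a group and some peaks of under 10 reads in a library, changes at the weakest peaks were the least precise.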
